A study of Leucoraja erinaceus with 4 samples.

Results

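Among the transcripts of an adult little skate, 60 of 186064 assembled genes were both short and abundant in every tissue sampled. They were chosen by 2 measured values: an assembled length under 1000 bases, averaged over the libraries, and at least 200 reads per 1000000 reads of the library (CPM) in each of the 4 libraries. The libraries came from liver, from body skin without electroreceptors, from ampullary canals (the tubes that connect the sense organ with the surface) and from ampullary receptor cells, which detect electric fields, all from 1 animal with 1 library per tissue. The labels name no treatment. Poly(A) RNA was sequenced from 1 µg of total RNA per sample with a stranded Illumina kit, and the liver piece weighed 4 mg. An assembled gene is a sequence put together from reads, so it can be a whole transcript, a fragment or 1 of several close copies. The identifiers are assembly numbers: 0 of them matched the 23250 genes of the RefSeq gene table (assembly Leri_hhj_1), so neither gene identities nor the cell type markers of the tissues were analysed here.

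The ampullary organs of skates, sharks and rays are jelly-filled tubes that open at a pore in the skin and end in a pouch lined with electroreceptor cells. In animals generally, short polyadenylated transcripts that are abundant in every tissue include many that encode ribosomal proteins, the small protein subunits that cells make in proportion to one another when they build ribosomes, and many that encode small subunits of the mitochondrial respiratory chain. This is background only, and none of the 60 identifiers is assigned to either class here.

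The 60 assembled genes took 11.1% of the canal reads, against 4.49% in receptor cells, 4.31% in skin and 3.54% in liver. The canal library thus stood alone, and the other libraries lay close together. In TPM, the deposited share of transcripts after correction for length (per 1000000 transcripts), the 60 held 26.9% of the canal library, 11.5% of receptor cells, 11.4% of skin and 9.47% of liver. One member, c19853_g1, carried much of the liver share: without it the other 59 held 2.4% of the reads in liver, 3.72% in receptor cells, 3.76% in skin and 10.6% in canals. For comparison, the 100 assembled genes of 1000 bases or more that met the same level requirement took 19.8% of the canal reads, 15.8% in receptor cells, 12.5% in skin and 10.9% in liver. Library totals were similar, from 11071249 to 12303108 reads, and every member had at least 2295 reads in every library (at most 125991). In such bulk samples, more cells of a type and more RNA per cell cannot be told apart.

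**Figure D1:**
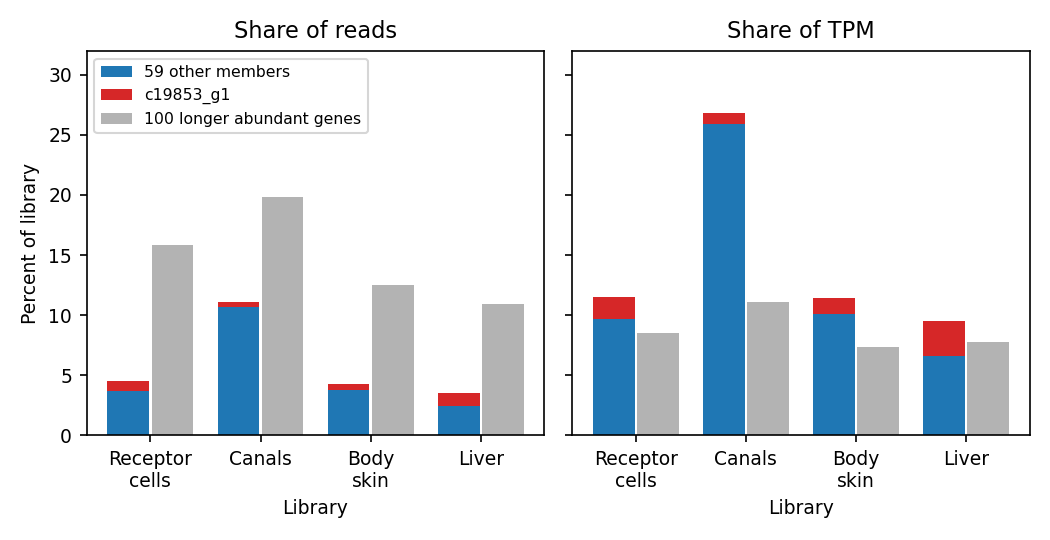
Percent of each library's reads (left) and of its TPM (right) held by the 60 short abundant assembled genes, with c19853_g1 stacked on the other 59, and by the 100 longer assembled genes that are as abundant. The canal bar of the 60 reaches 11.1% of reads and 26.9% of TPM, above the other libraries in both panels.

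Levels between libraries are compared as CPM of library sizes scaled with TMM (trimmed mean of M-values), which sets the bulk of assembled genes level. On that scale the median member was at 1642 CPM in canals, 476 in skin, 596 in liver and 344 in receptor cells. The canal library gave the highest value for 57 of the 60, liver for the other 3, and receptor cells and skin for 0. Over all 36326 assembled genes with at least 10 reads in 1 library, canals were highest for 24%, liver for 23%, receptor cells for 29.2% and skin for 23.7%. The canal count was 56 with plain library totals and 56 with TPM. The canal level was at least 2-fold above every other library for 47 of the 60 (78.3%), where 11.7% of all kept assembled genes were so. Of the 100 longer assembled genes, picked by the same level requirement, 49 were highest in canals and 18 were at least 2-fold above every other library.

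**Figure D2:**
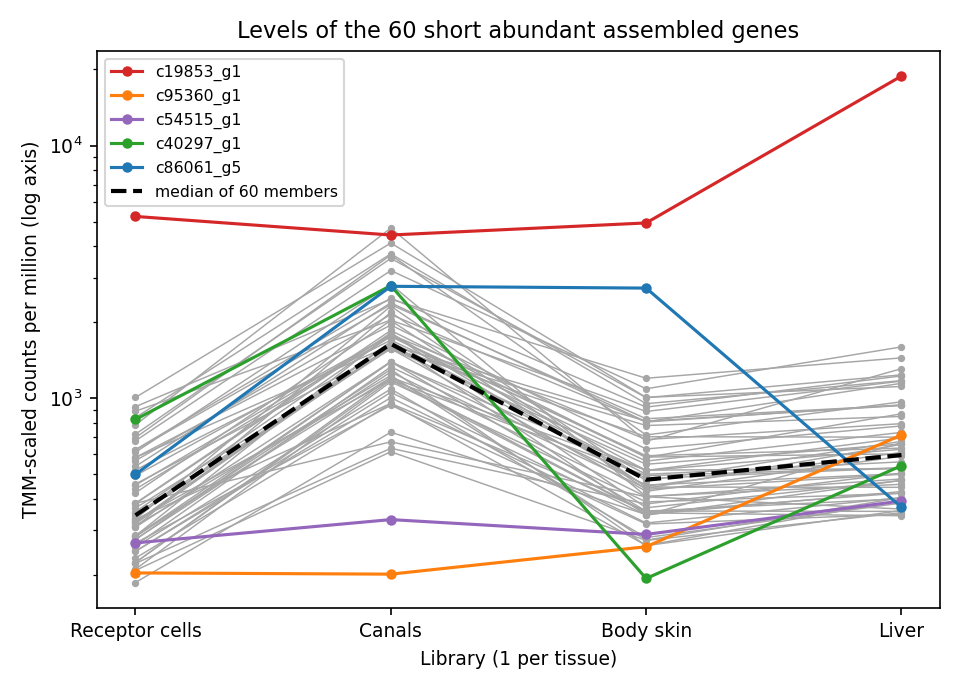
TMM-scaled CPM (log axis) of each of the 60 short abundant assembled genes in the 4 libraries, 1 line per assembled gene, with the median dashed and 5 named exceptions in colour. Most lines peak in canals, where the median is 1642 CPM against 344 in receptor cells, while c19853_g1 and c95360_g1 peak in liver.

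With TMM, canals differed most from receptor cells, and with library totals from liver. The median member was 4.26-fold higher in canals, a log2 difference for receptor cells over canals of -2.09, against 0.11 over all kept assembled genes. With library totals the log2 difference was -1.55, against 0.50. At least a 2-fold lower level in receptor cells was found for 56 of the 60. At least a 4-fold lower level was found for 37 with TMM, but for 4 with library totals and 2 with TPM. Over all kept assembled genes the corresponding shares with TMM were 18.3% and 6.51%. No such shares were computed with library totals or TPM. None of the 60 was at least 2-fold higher in receptor cells, where the background was 25.4%. The requirement of 200 CPM in each library is itself part of these contrasts and limits how far a member can differ, so these background shares are given for scale only, and no test was run with 1 library per tissue. Counting error was small beside the differences: the half-width of the exact 95% interval of a member's ratio between libraries was at most 0.076 on the log2 scale. It covers counting only, not differences between animals, dissections or library preparations, and not the estimation of how many reads belong to each assembled gene.

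The canal level was also above skin and above liver. Against skin the median member was 3.04-fold higher in canals (log2 difference 1.60, with 0 over all kept assembled genes), and 53 of the 60 were at least 2-fold higher, with a background of 21.6%. At least a 4-fold higher level was found for 13 with TMM, with a background of 9.23%, and for 7 with TPM, where no background share was computed. None was at least 2-fold lower in canals than in skin, where the background was 22.9%. Against liver the median was 2.58-fold higher in canals (log2 difference 1.37, again with 0 over all kept), and 48 of the 60 were at least 2-fold higher, against 22.6%. At least a 4-fold higher level was found for 5 with TMM, against 10.1%, but for 35 with library totals and 25 with TPM. The 10.1% holds for TMM only. Over all kept assembled genes the median log2 difference was 0.35 with library totals and 0.29 with TPM. The 2 members at least 2-fold lower in canals than in liver were c19853_g1 and c95360_g1, described below, and the background was 22.8%. All the comparisons with canals share the canal library, so they are not separate evidence.

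Receptor cells, skin and liver lay closer to each other, and their order depended on the scaling. With TMM, 44 of the 60 members followed the order canals, liver, skin and receptor cells from high to low. With plain library totals the most frequent order was canals, skin, receptor cells and liver (28 members), followed by canals, receptor cells, skin and liver (23). These orders were counted for the members only, so no share over all kept assembled genes stands beside them. Liver was the lowest library for 2 members with TMM and for 53 with library totals, and receptor cells were lowest for 49 and 2. Over all kept assembled genes, liver was lowest for 24.7% and 42.1%, and receptor cells for 22.3% and 13.1%. Of the 100 longer abundant ones, liver was lowest for 7 and 71, and receptor cells for 63 and 15. For receptor cells over skin, the median log2 difference was -0.42 with TMM and -0.0152 with library totals, and 8 and 29 of the 60 were above 0. Over all 36326 kept assembled genes, 19827 and 22729 were above 0, and of the 100 longer abundant ones 26 and 42. With TMM, 2 members were at least 2-fold lower in receptor cells, c86061_g5 and c14741_g1 (background 19.2%), and 1, c40297_g1, was at least 2-fold higher (25.2%). With library totals c86061_g5 alone was at least 2-fold lower. For receptor cells over liver the median was -0.73 with TMM and 0.56 with library totals. With TMM, 12 members were at least 2-fold lower (background 19.6%) and 0 were at least 2-fold higher (26.9%). With library totals 0 were lower and 7 higher, and with TPM 0 lower and 6 higher. The background shares at 2-fold hold for TMM only. Over all kept assembled genes this median was 0.15 with TMM, 1.07 with library totals and 1.18 with TPM. For skin over liver the median was -0.30 with TMM and 0.58 with library totals. With TMM, 3 members were at least 2-fold lower (19.5%) and 1 at least 2-fold higher (20.4%). With library totals 1 was lower and 2 were higher. Over all kept assembled genes this median was 0 with TMM and 0.46 with library totals.

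The members can also be set against other assembled genes of the same libraries. This reduces the dependence on the scaling but does not remove it, because the pseudocount of 0.5 CPM acts more on low levels. The reference was the median of the 14283 assembled genes with at least 10 reads in each library, chosen after seeing the data. Relative to it, the members' median log2 difference was -1.99 for receptor cells over canals, -0.39 for receptor cells over skin and -0.69 for receptor cells over liver. It was 1.60 for canals over skin, 1.34 for canals over liver and -0.30 for skin over liver. The same quantity from TPM, where lengths enter, was -1.91, -0.41 and -0.61 for receptor cells over canals, skin and liver, 1.52 and 1.35 for canals over skin and liver, and -0.20 for skin over liver. With library totals it was -0.61 for receptor cells over liver and -0.24 for skin over liver. Measured from the median of all kept assembled genes instead, skin over liver was -0.30 with TMM but 0.12 with library totals. The scaling moved the median of all kept assembled genes by as much as from 0.15 to 1.07 (receptor cells over liver, TMM and library totals).

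**Figure D3:**
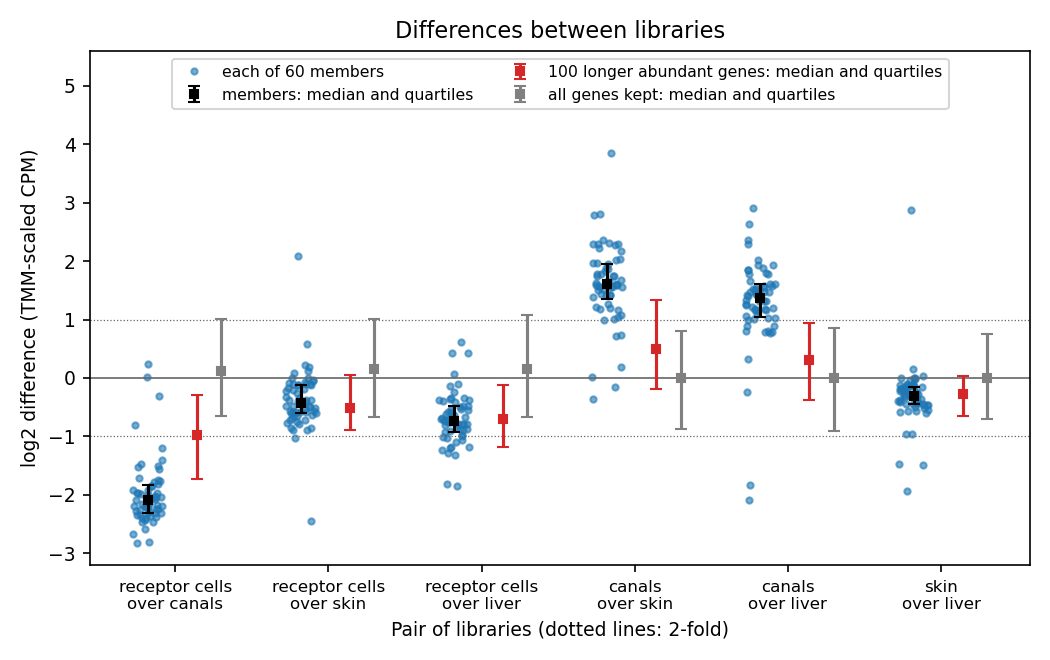
log2 difference in TMM-scaled CPM for each pair of libraries, with 1 point per short abundant assembled gene and squares with bars for the median and quartiles of the 60, of the 100 longer assembled genes that are as abundant, and of all 36326 kept. The members' medians are -2.09 for receptor cells over canals, 1.60 for canals over skin and 1.37 for canals over liver, while the members lie nearer to 0 in the other 3 pairs.

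The members also kept similar proportions to one another, a property that no rescaling of library sizes can change. Of the 60, 47 (78.3%) lay within 0.5 on the log2 scale of the members' own median for receptor cells over canals. Among 14283 assembled genes with at least 10 reads in each library, 39.1% lay that close to their own median, and among the 100 longer abundant ones 35%. For the other pairs the members' shares were 86.7% (receptor cells over skin, background 37.7%), 81.7% (receptor cells over liver, 36.2%), 65% (canals over skin, 34.7%), 71.7% (canals over liver, 35.1%) and 90% (skin over liver, 38.8%). The longer abundant ones gave 56%, 49%, 33%, 34% and 59% in that order. The background set includes low counts, whereas the longer abundant assembled genes met the same minimum of 200 CPM.

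A total of 35 of the 60 lay within 0.5 of the members' medians in all 3 canal comparisons at once. This profile was matched by 127 of the 14283 assembled genes with at least 10 reads in each library (0.889%), the 35 members included. The members set the profile, so their own share is a description. Of the 92 others that matched it, 18 belonged to the 100 longer abundant assembled genes. By length, these were 10 of 23 from 1000 to below 1500 bases and 0 of 19 from 1500 to below 2000. From 2000 to below 3000 bases it was 6 of 28, and at 3000 or more 2 of 30. The members gave 6 of 7 under 500 bases, 19 of 34 from 500 to below 750 and 10 of 19 from 750 to below 1000. The profile thus did not end at the 1000-base limit.

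Per length, the highest mean level belonged to c19853_g1 (698 bases), with a TPM of 9647 in canals, 12951 in skin, 28314 in liver and 18437 in receptor cells. It departed from the common pattern, with its highest value in liver and its lowest in canals. Its level after TMM scaling was 4427 CPM in canals, 4942 in skin, 18838 in liver and 5244 in receptor cells. The liver level was 4.25-fold that of canals (95% interval 4.21 to 4.30). With library totals the ratio was 2.55.

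The next 3 by level per length all peaked in canals. The assembled gene c1039_g1 (469 bases) had a TPM of 14658 in canals, 5143 in skin, 3592 in liver and 4855 in receptor cells. On the CPM scale it was 4.96-fold above receptor cells in canals (4.87 to 5.06), 3.56-fold above skin (3.49 to 3.63) and 2.89-fold above liver (2.82 to 2.96). The shortest member, c46085_g1 (375 bases), had 2189 CPM in canals, 446 in skin, 445 in liver and 309 in receptor cells. On the TMM scale skin and liver thus lay together, with receptor cells lower and canals far above. With library totals its skin level was 1.84-fold that of liver. Its canal level with TMM was 7.08-fold that of receptor cells (6.88 to 7.29). The assembled gene c76193_g1 (590 bases) had 4114 CPM in canals, 1008 in skin, 1114 in liver and 1008 in receptor cells. Its levels in receptor cells and skin did not differ beyond counting error on the TMM scale (ratio 1.00, interval 0.978 to 1.02), and with library totals the ratio was 1.33. The longest member, c45957_g1 (976 bases), also peaked in canals, at 1785, 687, 794 and 453 CPM in canals, skin, liver and receptor cells.

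The largest canal excess over the mean of the other libraries belonged to c40297_g1 and c939_g1. The assembled gene c40297_g1 (875 bases) had 2792 CPM in canals, 194 in skin, 541 in liver and 825 in receptor cells, the widest range of the 60. It was 14.4-fold higher in canals than in skin (13.8 to 15.0) and in receptor cells 4.26-fold above skin (4.08 to 4.44). Liver was above skin as well, 2.79-fold (2.66 to 2.94), so skin was the low library for this member. The assembled gene c939_g1 (805 bases) had 2826 CPM in canals, 409 in skin, 457 in liver and 612 in receptor cells. Its canal level was 6.91-fold that of skin (6.71 to 7.11). Also low in skin was c71098_g1 (891 bases), with 4716 CPM in canals, 676 in skin, 1310.4 in liver and 785 in receptor cells.

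One member was high in canals and skin alike. The assembled gene c86061_g5 (602 bases) had 2775 CPM in canals, 2729.7 in skin, 371 in liver and 500.2 in receptor cells. Canals and skin were nearly equal (ratio 1.02, 1.00 to 1.03, and 0.924 with library totals), and canals were 7.48-fold above liver (7.18 to 7.79) and 5.55-fold above receptor cells (5.42 to 5.68). With library totals it was highest in skin, the only member that was. Next by skin level relative to the mean of the other libraries was c14741_g1 (650 bases). It had 1589 CPM in canals, 705 in skin, 702 in liver and 347 in receptor cells. Its skin level was not above that mean (log2 difference -0.049). With TMM, skin and liver did not differ beyond counting error (ratio 1.00, 0.969 to 1.04).

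Other members were named for a low canal level, a narrow range across the libraries or a low level in receptor cells. The assembled gene c95360_g1 (918 bases) had 202 CPM in canals, 259 in skin, 716 in liver and 204 in receptor cells. The liver level was 3.55-fold that of canals (3.38 to 3.73), and 2.13-fold with library totals. Its levels in receptor cells and canals did not differ beyond counting error (ratio 1.01, 0.961 to 1.06) on the TMM scale. The steadiest member was c54515_g1 (701 bases), with 331 CPM in canals, 289 in skin, 392 in liver and 268 in receptor cells, a highest-to-lowest ratio of 1.47. With library totals it was highest in receptor cells, the only member that was, and its ratio was 1.67. The next steadiest, c76007_g2 (775 bases), had 673 CPM in canals, 408 in skin, 365 in liver and 384 in receptor cells, a ratio of 1.84. With library totals its canal level was 3.08-fold that of liver. These 2 were the only members within 2-fold across the libraries with TMM, where 10.2% of all kept assembled genes were, and the median member had a ratio of 4.44. Receptor cells were farthest below the mean of the other libraries in c86061_g5 and in c46165_g1 (578 bases), the latter with 1390 CPM in canals, 518 in skin, 697 in liver and 285 in receptor cells.

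Levels per length ranked the members similarly in all libraries. Across the 60, Spearman's rho of TPM was highest between skin and liver (0.86) and between receptor cells and canals (0.838), and lowest between canals and skin (0.72). The other pairs gave 0.778 (receptor cells and skin), 0.734 (receptor cells and liver) and 0.729 (canals and liver). The points share the assembled lengths and the minimum level, and 2 coefficients with the same library are not independent. Over the 100 longer assembled genes the coefficients ranged from 0.749 to 0.805. Of the 35 assembled genes among the 100 highest TPM of every library, 28 were members, which the rule favours because a short sequence with 200 CPM has a high TPM.

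**Figure D4:**
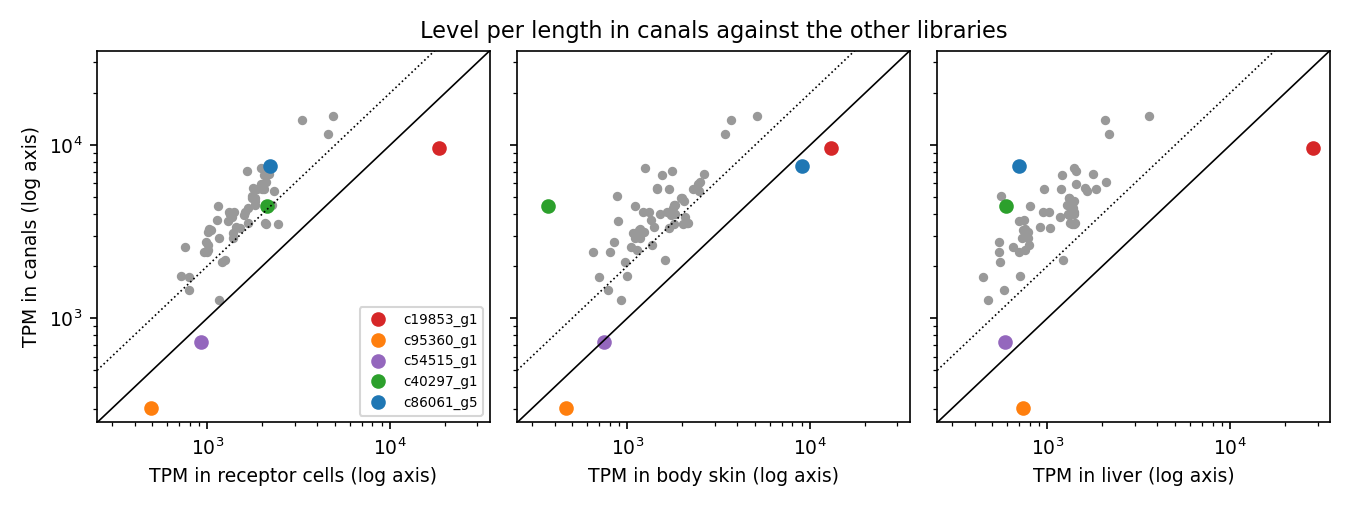
TPM of the 60 short abundant assembled genes in canals (vertical, log axis) against receptor cells, skin and liver (horizontal, log axes), with the line of equal level solid and the 2-fold line dotted. Most points lie above the line of equal level in a band along it, and c19853_g1 and c95360_g1 lie below it in all 3 panels.

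The canal excess of abundant assembled genes did not end at the 1000-base limit, and its median was larger in each class below 1500 bases than in each class above. Among the 160 with at least 200 CPM in each library, canals were highest for 7 of the 7 under 500 bases, 32 of 34 from 500 to below 750 and 18 of 19 from there to below 1000. Beyond the limit they were highest for 16 of 23 below 1500 bases, 8 of 19 from 1500 to below 2000, 13 of 28 from 2000 to below 3000 and 12 of 30 at 3000 or more. The median fold of canals over receptor cells was 4.59, 4.54 and 3.92 in the 3 shorter classes, then 3.74, 1.78, 2.0 and 1.67. The classes of 7 and 19 hold fewer than 20 assembled genes. Over all 14283 with at least 10 reads in each library, length went with the canal level far less: that median fold was 1.17 under 500 bases, 1.16 from 500 to below 750, 1.1 from 750 to below 1000 and 0.977 at 3000 or more. In that larger set canals were highest for 32.4%, 34.2%, 29.9%, 27.3%, 26.7%, 26.4% and 24.0% of the same length classes, from short to long. A further reference was the median of assembled genes of like length in that larger set. From it, the median member in canals was 3.66-fold above receptor cells, 2.73-fold above skin and 2.76-fold above liver. That reference takes in all levels, so it does not represent abundant assembled genes. The part that length plays was not tested. Within the 60, the canal excess had a rank correlation of -0.20 with length and 0.29 with mean TPM. The mean TPM includes the canal level itself, so the second value is partly built in. Mean TPM and length had a rank correlation of -0.39 with each other.

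**Figure D5:**
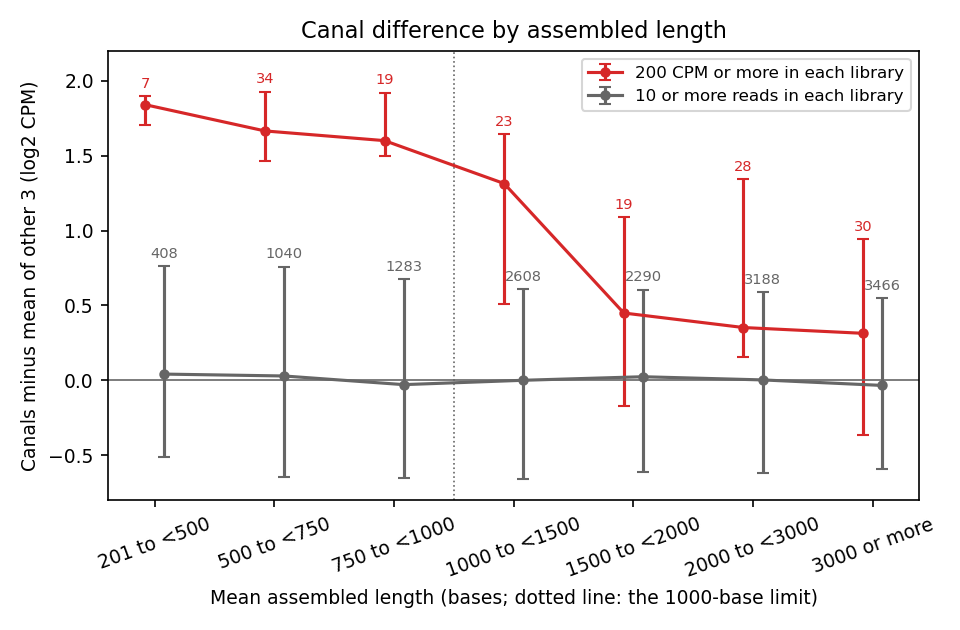
Median log2 difference between canals and the mean of the other 3 libraries by assembled length, with bars for the quartiles and the number of assembled genes above each bar, for those with at least 200 CPM in each library and those with at least 10 reads in each. The abundant ones fall from 1.84 under 500 bases to 0.31 at 3000 or more, while the larger set stays near 0 throughout.

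The libraries also differed in fragment length, which bears on short transcripts. The deposited lengths and effective lengths (the number of positions where a fragment can start) correspond to mean fragments of 209.7 bases in canals, 219.9 in receptor cells, 224.1 in liver and 229.6 in skin, so the canal fragments were the shortest. For the shortest member the effective length was 166.9 bases in canals and 148.6 in skin. TPM takes this into account, and by TPM the median member in canals was 2.62-fold above receptor cells, 2.48-fold above skin and 3.70-fold above liver. These folds carry no TMM scaling, so they compare with library totals and not with the TMM folds above. The median log2 difference with library totals and with TPM was -1.55 and -1.39 for receptor cells over canals. It was 1.47 and 1.31 for canals over skin, and 2.11 and 1.89 for canals over liver. The part that fragment length or RNA quality plays beyond the effective lengths in TPM was not tested.

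Most members were simple in the assembly, as were most assembled genes. A single transcript was assembled for 56 of the 60 (93.3%), for 75% of the 100 longer abundant ones and for 89.3% of all. The 60 belonged to 60 different assembly clusters (identifiers that share the part before "_g"). Of them, 55 (91.7%) were alone in their cluster, against 83% of the 100 longer abundant ones and 88.3% of all. The most transcripts, 6, belonged to c89101_g1, whose abundance-weighted length ranged from 490.0 to 548 bases between libraries. Its level was 1571 CPM in canals, 429 in skin, 590 in liver and 342 in receptor cells. The median member was 681 bases long, and the median of all assembled genes was 309.

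The thresholds cut through a continuous range. Just inside the length limit, c75745_g1 (960 bases) and c45957_g1 (976 bases) had library-total CPM of 873 and 480 in liver, their lowest library. Just outside, c61768_g1 (1010 bases) had 3035 CPM in canals, 1005 in skin, 1217 in liver and 677 in receptor cells after TMM scaling, the common shape of the shorter ones. The other one just outside, c71334_g1 (1009 bases), was instead highest in liver, at 26148 CPM against 6918 in canals. Just inside the level limit were c95360_g1, with 204 CPM of library totals in canals, and c71282_g1, with 207 in liver. Just outside were c60201_g1 (199 in liver) and c8968_g1 (198 in liver).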

How the data were processed

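Per the submitters' processing notes, reads were assigned with RSEM 1.1.17, and the file headers name RSEM's columns. For the assembler, aligner and filters, the sources used here give no statement. The deposited expected counts are the authors' estimated reads per assembled gene, not normalized, and they were rounded to whole numbers. The deposited TPM values are length-corrected shares, per the file headers. The deposited FPKM values were not used.

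Members were rows with a mean length under 1000 and a CPM of 200 or more (rounded count over library total) in each of 4 libraries. Members and lists were chosen with earlier results of these data known. Of all assembled genes, 36326 were kept, those that reached 10 reads in 1 library or more. Library sizes were scaled with TMM (edgeR 4.0.16, R 4.3.3), with factors of 0.6041 for liver, 1.01 for canals, 1.111 for skin and 1.476 for receptor cells. Differences were taken between log2(CPM + 0.5) values, which shrinks those of low levels. Single ratios are ratios of CPM with exact Clopper-Pearson 95% intervals, which cover counting error only, since reads from PCR copies are not independent. The intervals treat the rounded estimates as counted reads. With 1 library per tissue there is no replicate check, and no p-value was computed. Rules of size (2-fold and 4-fold) were used. The calculation of fold differences and intervals was tested on simulated reads for a pair of libraries, scaled by library totals. TMM scaling and differences between library preparations were not part of that test.

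Named assembled genes were the 4 with the highest mean TPM, the 2 steadiest, and the shortest and longest. For each library the 2 with the highest and the 2 with the lowest log2 difference from the mean of the others were named. Also named were the 2 of most variable length and those next to the thresholds. Alternatives were library totals, DESeq2 1.42.0 size factors, TPM, library sizes without the members, other pseudocounts, filters and thresholds, and sums per assembly cluster.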

Additional observations from a re-analysis of the deposited data

How the results depend on the processing

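No paired analysis was possible because the tissues have no replicates, which also means that none could be left out. When the counts were recomputed under the alternatives, 140 values were within 1.5 times the count reported and 26 were farther off. The 140 include counts of 0 that stayed 0. They also include the other pseudocounts, which are too small beside the members' levels to move a count much. The tally therefore describes the alternatives run and does not measure robustness. Shares over all kept assembled genes at 2-fold and 4-fold were computed with TMM only. The rule gave 22 members with a CPM minimum of 400, 7 under 500 bases, 102 under 2000 bases and 93 with a TPM of 200 or more, by its construction. With library totals, 1 member was within 2-fold across the libraries, 1 was highest in receptor cells and 1 in skin. For receptor cells, 1 was at least 2-fold lower than skin, and 7 were higher and 0 lower than liver. For skin, 2 were higher and 1 lower than liver. With TPM, 1 was highest in receptor cells and 1 in skin. Receptor cells had 2 higher and 1 lower than skin, and 6 higher and 0 lower than liver, and skin had 1 lower than liver. By the near end of the counting interval, 1 was lower in receptor cells than in skin. The 2-fold counts of canal differences stayed within 1.5 times under the alternatives run, differences from assembled genes of like length (chosen after seeing the data) included. The 4-fold counts, recomputed after seeing the data, did not: receptor cells below canals gave 4 with library totals and 2 with TPM, canals above skin 7 with TPM, and canals above liver 35 with library totals, 25 with TPM and 10 with TMM over every assembled gene. Of the median log2 differences, receptor cells over liver reversed to 0.56 with library totals and 0.49 with TPM, and skin over liver to 0.58 and 0.52. Receptor cells over canals was -1.55 with library totals, -2.19 with DESeq2 size factors and -1.39 with TPM. Receptor cells over skin was -0.0152, -0.52 and -0.0305 in that order, and receptor cells over liver -0.83 with DESeq2 size factors. Canals over skin was 1.47 with library totals and 1.31 with TPM, and canals over liver 2.11 and 1.89. With library totals and DESeq2 size factors, these movements of the medians are the change of scaling itself. With TPM lengths enter as well, and their part was not tested. The members have at least 2295 reads in each library, a floor that the requirement of 200 CPM largely sets by itself.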

Other observations

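Less abundant short assembled genes were highest in canals in part. Of the 18 short ones whose lowest CPM lay between 100 and 200, 9 were highest in canals, as were 17 of 47 between 50 and 100, 55 of 99 between 20 and 50, and 76 of 145 between 10 and 20. At 1000 bases or more the corresponding shares were 22.4%, 20.5%, 23.6% and 29.4%. The members' profile (the 3 canal differences within 0.5 of the members' medians) was matched by 4 of the 18 short ones, or 22.2%. In the lower classes it was matched by 1 of the 47, 1 of the 99 and 1 of the 145. Over all 14283 with at least 10 reads in each library the share was 0.889%, and among the 100 longer abundant ones 18%. The class of 18 holds fewer than 20 assembled genes.

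Short assembled genes that reached 200 CPM in any library mostly did so in 1 library or in all 4. Of 176 such assembled genes, 83 passed in 1 library, 9 in 2, 24 in 3 and 60 in 4. Of 1353 assembled genes of 1000 bases or more with that level in any library, 100 passed in all 4. Of the 24 short ones that missed in 1 library, 18 missed in liver, 5 in skin, 1 in receptor cells and 0 in canals. The cut uses plain library totals, with which liver was the lowest library for 42.1% of all kept assembled genes. After TMM scaling, c60201_g1 and c8968_g1, just below the cut in liver, had 330 and 328 CPM there.

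Assembly clusters of the 5 members with partners held 8 further assembled genes. The cluster of c86061_g5, which was high in canals and skin, also holds c86061_g3 (1777 bases), with 41248 reads in liver, 8 in canals, 7 in skin and 20 in receptor cells. The partner of c93456_g2, c93456_g1 (7539 bases), was highest in skin, at 918 CPM against 383 in canals, while c93456_g2 itself (686 bases) had 955 CPM in canals and 358 in skin. Cluster partners need not come from 1 gene.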
